A study of Mus musculus with 4 samples.

Results

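Border-associated macrophages were chosen by measured values, as the cell barcodes that carried at least 8 unique molecular identifiers (UMIs, each a tag for a captured RNA molecule) of *Mrc1*, *Pf4*, *Cbr2* and *Cd163* together, at least 1 UMI of *Csf1r* and at most 3 UMIs of *Tmem119* and *P2ry12* together. Each barcode also needed at least 1000 UMIs and a mitochondrial share of no more than 15.8%. This rule took 289 barcodes out of 36876 in the files, of which 30941 passed the limits on depth and mitochondrial share. The levels of these 7 genes therefore chose the cells and are given only as a description. Border-associated macrophages line the surfaces of the brain, in the meninges, the spaces around blood vessels and the choroid plexus, whereas microglia lie inside the tissue. They scavenge material from blood and cerebrospinal fluid through lectin and scavenger receptors, and part of them carry MHC class II, the molecules that show peptides to helper T cells. Both macrophage types depend on the receptor encoded by *Csf1r*, but *Tmem119* and *P2ry12* mark microglia while *Mrc1* (the mannose receptor CD206) marks the border cells.

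Whole brains of 4 male C57BL/6J mice were digested at 37 °C (30 min), depleted of myelin and dead cells, and measured by droplet RNA sequencing. The groups were 1 adult mouse and 1 aged mouse on a low fiber diet with 0% inulin, and 1 adult mouse and 1 aged mouse on a high fiber diet with 5% inulin, a fermentable fiber. Both diets also held 1% cellulose, and the mice were 3 to 4 (adult) or 23 to 24 (aged) months old when the diets began. They were older when their brains were taken, after the weeks on the diets. Age was therefore compared in 2 against 2 mice with the diets pooled, and an exact permutation test of that size gives no two-sided p under 0.333.

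The adult mice gave 87 (0% inulin) and 76 (5% inulin) border macrophage barcodes, and the aged mice 61 and 65. As a share of all barcodes kept, this was 1.10% (95% exact binomial interval 0.886 to 1.36) and 0.887% (0.700 to 1.11) in the adult mice, and 0.920% (0.704 to 1.18) and 0.826% (0.638 to 1.05) in the aged mice. The intervals cover counting error only. The shares of the ages overlapped, and the means of 0.996% ± 0.154 (SD, n = 2) in adult and 0.873% ± 0.0660 (SD, n = 2) in aged mice differed by -0.123 percentage points (exact two-sided permutation p = 0.667). The overlap was lost without the *Gata6* barcodes described below (-0.152) and with 0 UMIs of *Tmem119* and *P2ry12* (-0.0955; exact two-sided permutation p = 0.333 for both). The other gates kept it, with differences of -0.196 to -0.0375 percentage points. Among barcodes with a *Csf1r* UMI, the shares of 3.46% and 2.98% in adult mice lay above the 2.51% and 2.61% in aged mice, at the smallest p that the design allows (exact two-sided permutation p = 0.333). The median depth of the border macrophages was 8166 and 7175 UMIs in adult and 9543 and 8117 UMIs in aged mice, so depth did not separate the ages.

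Of the chosen barcodes, 12 held exactly 8 UMIs of the 4 marker genes, and 19 barcodes that met the other limits held 7 and were left outside. The median depth was 8764 UMIs just inside that limit and 4654 UMIs just outside. On the microglial side, 31 barcodes held 3 UMIs of *Tmem119* and *P2ry12*, and 6 barcodes were left outside because they held 4. No barcode sequence was shared between chosen barcodes of different mice, although 192 sequences occurred in more than 1 of the 4 libraries and 2 of the chosen barcodes carried such a sequence.

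Many of the chosen droplets also held RNA of another cell class. Such mixed barcodes were defined, after the data had been seen, as those with more than 25 of 10000 UMIs from the marker list of another class, or more than 400 of 10000 for the choroid plexus list, whose RNA was found at a low level in most barcodes. They numbered 57 (19.7%) and were 19 and 18 in the adult and 11 and 9 in the aged mice. Because their median depth was 20239 UMIs against 7258 UMIs for the others, they held 44.7% of all border macrophage UMIs, with 51.1% and 44.9% in the adult and 38.1% and 41.3% in the aged mice. Endothelial markers passed the limit in 35 of them, mural cell markers in 23, fibroblast markers in 12, astrocyte markers in 9 and choroid plexus markers in 6, of which 4 came from the adult mouse on 0% and 2 from the aged mouse on 5% inulin. The doublet caller Scrublet marked 13 of the 289 barcodes (4.50%), all of them mixed. Whether a mixed barcode was a pair of cells, or a macrophage that carried RNA of a neighbor, was not tested.

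**Figure D1:**
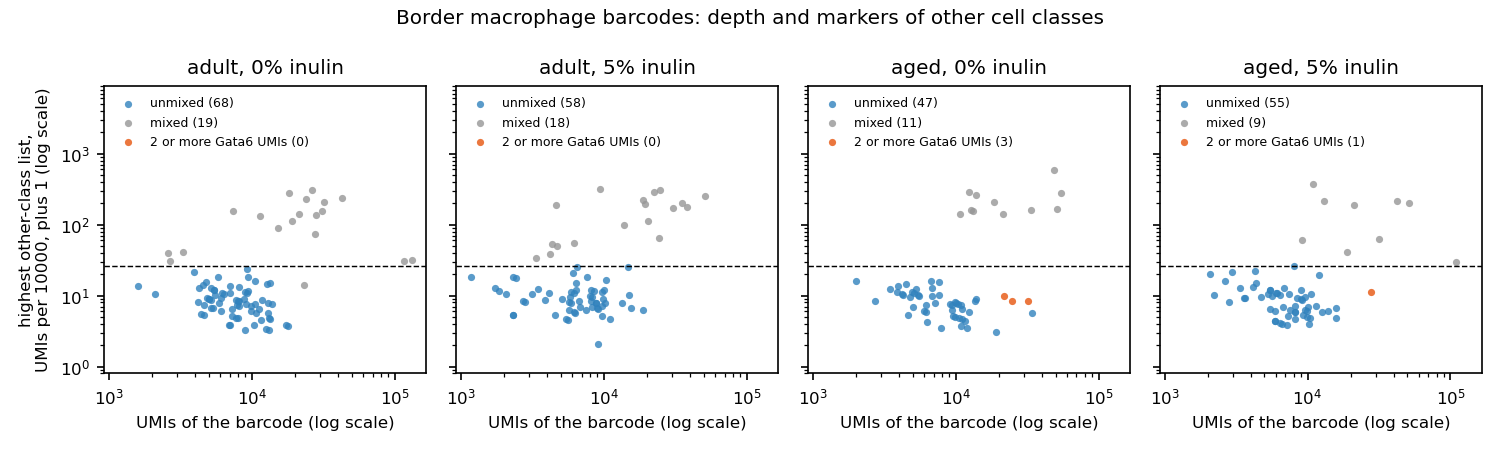
Each point is 1 of the 289 border macrophage barcodes, by mouse, with its UMIs on the x axis and the marker list of another cell class (choroid plexus not included) with the most UMIs, per 10000 UMIs plus 1, on the y axis, both on log scales. The dashed line is the limit of 25 per 10000. Gray mixed barcodes lie mostly at the right, with a median of 20239 UMIs against 7258 UMIs for the rest, and the 4 orange barcodes with *Gata6* UMIs occur only in the panels of the aged mice.

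A further 4 barcodes, 3 from the aged mouse fed 0% and 1 from the aged mouse fed 5% inulin, held 3 to 8 UMIs of *Gata6*, the transcription factor known for large macrophages of the peritoneal cavity. *Pf4*, with 48 to 393 UMIs in each, was enough to meet the rule's limit of 8, and *Tmem119* had no UMI. *Mrc1* had 24 UMIs in 1 of them, with 8 of *Cd163*, 1 of *Cbr2* and 1 of *Lyve1*. That barcode would have met the limit without *Pf4* too. In the others *Mrc1* had at most 1 UMI. They carried 1433 of the 1434 *Saa3* UMIs (99.9%; serum amyloid A3), 1591 of the 1592 *Slpi* UMIs (99.9%; a secreted protease inhibitor), 96.5% of the *Alox15* UMIs (a lipoxygenase), 92.7% of the *Cd5l* UMIs and 90.1% of the *Prg4* UMIs of all 289 barcodes. No border macrophage barcode of the adult mice had 2 *Gata6* UMIs, but over all barcodes kept (these 4 included), 30 and 27 in the adult and 33 and 45 in the aged mice did, so the gene was detected in all libraries. The data go against the label for these 4 barcodes, although 1 of them also held *Mrc1*, *Cd163* and *Cbr2* UMIs, and their place in the brain was not tested. The values below are therefore given for all 289 barcodes and for the 228 barcodes without mixed and *Gata6* barcodes (68 and 58 in adult, 47 and 55 in aged mice; 555717, 411341, 394283 and 407371 UMIs), called unmixed below.

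The label was checked against border macrophage genes outside the rule. In this and the following text, a level is in CPM, the UMIs of a gene summed over the barcodes of a mouse, per 1000000 UMIs, with edgeR's TMM scaling. Levels set beside microglia were scaled together with them, and those in the tests of age and diet were scaled over the border macrophages alone, so that the same gene differs slightly between them. The comparison with the 6491 microglia of the same mice was part of the rule (*Tmem119* and *P2ry12* against *Mrc1*, *Pf4*, *Cbr2* and *Cd163*), so it is a description and has no test. Over the unmixed barcodes, 1386 of 12219 genes (11.3%) passed the thresholds of adjusted p under 0.05 and 1.5-fold on the higher side and 1305 (10.7%) on the lower side, and over all 289 barcodes 1419 (9.49%) and 1152 (7.7%) of 14955 did. Nothing is read from these counts.

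*F13a1*, which encodes the A subunit of coagulation factor XIII, was at 1269 and 1139 CPM in unmixed border macrophages of adult mice and at 1000 and 885 CPM in those of aged mice. It was at 0.261 to 1.08 CPM in microglia. *Ms4a7*, a membrane protein of border and other tissue macrophages, was at 794 and 834 CPM in adult and 967 and 727 CPM in aged mice, against 1.33 to 17.8 CPM in microglia. *Stab1*, the scavenger receptor stabilin 1, was at 1184 to 1552 CPM against 110 to 194 CPM. Thus these 3 genes separated the classes in every mouse, with the widest gap for *F13a1*. *Lyve1*, a hyaluronan receptor of perivascular and meningeal macrophages and of lymphatic vessels, was at 657, 418, 621 and 342 CPM in the adult mice (0% and 5% inulin) and the aged mice (0% and 5%), and at no more than 0.261 CPM in microglia. *Cd209f*, a C-type lectin, was at 520 to 1215 CPM, *Folr2*, a folate receptor, at 279 to 429 CPM, and *Clec10a*, a lectin for galactose residues, at 226 to 481 CPM, and none of the 3 exceeded 1.96 CPM in microglia. Microglial genes outside the rule were not all low. *Sall1*, the transcription factor of microglial identity, had 3 UMIs in the 228 barcodes (0, 2, 1 and 0) against 222 to 307 CPM in microglia. *Fcrls*, however, was at 945 to 1265 CPM in border macrophages and 1068 to 1614 CPM in microglia, in ranges that overlapped. Of the complement genes, *C1qa* was likewise near the microglial level, at 7226 to 8746 CPM against 7857 to 10918 CPM.

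Markers of other blood-borne cells were looked up in the unmixed barcodes. Of the 12 dendritic cell genes, *Ccr7*, *Clec9a*, *Xcr1* and *Ffar2* had no UMI, and *Cd209a* made up 83.8% of the list's UMIs. The list summed to 5.07 and 2.41 per 10000 UMIs in adult and 4.31 and 1.96 in aged mice. Of the 15 T and NK cell genes, 9 had no UMI, among them *Cd3d*, *Cd3e* and *Trac*, and the list reached at most 0.393 per 10000 UMIs, mostly *Cd4*. *Cd79a* and *Ms4a1* of the B cell list were at 0, while the list summed to 1.62 and 1.70 per 10000 UMIs in adult and 1.83 and 2.43 in aged mice, 84.3% of it *Ighm*, and monocyte genes summed to 1.55 to 4.08 per 10000 UMIs.

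**Figure D2:**
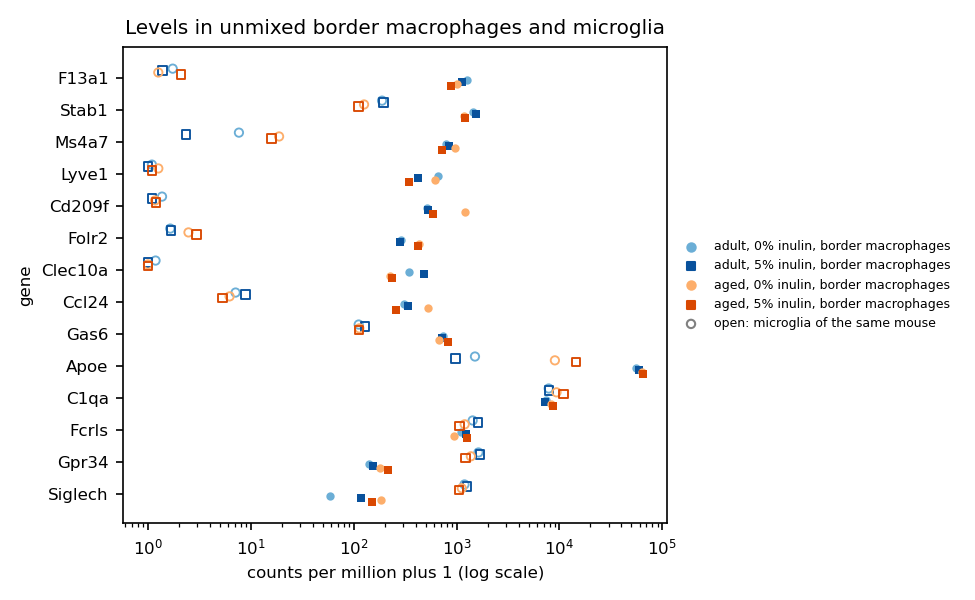
Levels of 14 genes outside the rule (y axis) in CPM plus 1 on a log x axis, with filled symbols for unmixed border macrophages and open symbols for microglia of the same 4 mice, colored by mouse. *F13a1*, *Lyve1*, *Cd209f* and *Clec10a* stand far apart between the classes, whereas *C1qa* and *Fcrls* lie close together.

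Unmixed border macrophages did not carry MHC class II evenly. After each barcode had been thinned to 2000 UMIs at random, the sum of *H2-Aa*, *H2-Ab1*, *H2-Eb1* and *Cd74* had a median of 89 UMIs in the 86 barcodes with at least 10 and a median of 0 in the other 138. Only 15 of the 224 barcodes that were deep enough lay between 5 and 20, so few were near the limit. The high range held 23 of 67 barcodes (34.3%) and 24 of 55 (43.6%) in adult mice, and 17 of 47 (36.2%) and 22 of 55 (40.0%) in aged mice. Unthinned, the same limit took 44.8% and 45.5% in adult and 38.3% and 50.9% in aged mice. The shares of the ages overlapped, with a difference of -0.90 percentage points (exact two-sided permutation p = 1). Thinned to 1000 UMIs with the limit kept at 10, the shares were 35.3% and 37.9% in adult and 34.0% and 30.9% in aged mice. They did not overlap, with a difference of -4.14 percentage points (exact two-sided permutation p = 0.333). With a limit of 5 of 1000 UMIs, the shares were 35.3% and 39.7% in adult and 36.2% and 38.2% in aged mice. The ages then overlapped, with a difference of -0.30 percentage points. The limit of 10 of 2000 UMIs was also applied to all barcodes of the gate but the 4 under 2000 UMIs. There the shares were 27.9% and 38.4% in adult and 39.3% and 32.3% in aged mice. This was a difference of 2.69 percentage points in the opposite direction (exact two-sided permutation p = 0.667). In microglia of these mice, the share at the same limit was 0.304 to 1.85%, and in endothelial cells 0.0353 to 0.685%.

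*H2-Aa* and *H2-Eb1* encode an alpha chain of the I-A and a beta chain of the I-E class II molecule, and their genes lie in the MHC region at chr17:34282744-34287823 and chr17:34305867-34316674 (GRCm38, gene models of GENCODE). Class II promoters are known for a Y box, bound by the factor NF-Y, close to the start of transcription. Below are 100 bases from the promoter of each gene (RefSeq, GRCm38.p6, chr17:34287824-34287923 on the minus strand and chr17:34305759-34305858 on the plus strand, 5′ to 3′ along the gene), shown because both hold the 8 letters CTGATTGG, in capitals.
H2-Aa: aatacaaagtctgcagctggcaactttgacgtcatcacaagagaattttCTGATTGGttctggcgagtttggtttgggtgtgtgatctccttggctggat
H2-Eb1: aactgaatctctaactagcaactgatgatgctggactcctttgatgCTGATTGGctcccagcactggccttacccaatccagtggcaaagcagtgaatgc
The match began 51 bases before the start in *H2-Aa* and 62 bases before it in *H2-Eb1*. Searched on both strands from 250 bases before to 50 bases after the start, these letters were found in 4 of the 8 class II genes with a promoter in the table (*H2-Aa*, *H2-Eb1*, *H2-Eb2* and *H2-Oa*). Counted by promoter, they were in 4 of 9 (44.4%), against 4.10% of all 32851 promoters. A match of letters is a description and shows no binding in these cells.

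Other genes followed the class II split, as a description of ranges cut from the same barcodes. Among 3089 genes with a mean level of at least 50 CPM in either range, 200 were higher in the high range in each of the 4 mice without overlap and 386 were lower. *Ccr2*, the receptor by which monocytes leave the blood, had 54, 32, 15 and 22 UMIs in the high range of the 4 mice and 0 in the low range of each, where a count of 0 allows up to 3 UMIs. *Ciita*, the master activator of class II transcription, had 42, 18, 15 and 13 UMIs against 0 in every mouse. *H2-DMa*, which helps to load peptides onto class II, was at 588 to 1002 CPM in the high and 48.3 to 155 CPM in the low range. In every mouse *Ciita*, *H2-DMa* and *Ccr2* were thus higher in the high range, as genes chosen after their values were seen. With 0 UMIs in the low range, *Ccr2* and *Ciita* could reach 50 CPM only through the high range. Other genes were higher in the low range. *Cd209f* was at 772 to 1602 CPM there and at 0 to 106 CPM in the high range, *Ccl24* (eotaxin 2) at 359 to 676 against 19.2 to 56.0 CPM, *Folr2* at 373 to 586 against 24.0 to 147 CPM, and *Slc40a1*, the iron exporter ferroportin, at 132 to 351 against 19.2 to 52.7 CPM. *Lyve1* was at 438 to 842 against 0 to 235 CPM. In barcodes thinned to 2000 UMIs, a *Lyve1* UMI was found in 66 of 138 low and 3 of 86 high barcodes. The share in the low range was 56.8% and 54.8% in adult and 53.3% and 24.2% in aged mice, so the aged mouse on 5% inulin stood apart. *Mrc1*, a gene of the rule, was at 1992 to 2948 CPM in the low and 792 to 1179 CPM in the high range. The label check above pooled both ranges, whereas *Cd209f*, *Folr2* and *Lyve1* were mostly in the low range. Whether the high range, with its *Ccr2* UMIs, held monocytic or dendritic cells was not tested.

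Over all barcodes of the gate with at least 2000 UMIs, mixed ones included, the share with a *Lyve1* UMI of 2000 was 33.7% and 26.0% in adult and 29.5% and 13.8% in aged mice. Unthinned, it was 44.2% and 38.4% in adult and 39.3% and 32.3% in aged mice. At 2000 UMIs the shares overlapped between the ages, with means of 29.9% ± 5.44 (SD, n = 2) and 21.7% ± 11.1 (SD, n = 2) and a difference of -8.20 percentage points (exact two-sided permutation p = 0.667). Thinned to 1000 UMIs, the shares were 27.6% and 19.7% in adult and 16.4% and 10.8% in aged mice. There the ages did not overlap, with a difference of -10.1 percentage points (exact two-sided permutation p = 0.333). In the unmixed barcodes, the shares at 1000 UMIs were 29.4% and 17.2% in adult and 29.8% and 12.7% in aged mice. These overlapped between the ages, with a difference of -2.07 percentage points. In the aged mouse on 0% inulin, 14 of 47 unmixed but 10 of all 61 barcodes had a UMI, in separate random draws. In both ages the mouse on 5% inulin had the lower share. Over all barcodes of the gate, the diets differed at 2000 UMIs by -11.7 percentage points (exact two-sided permutation p = 0.333). At 1000 UMIs the diets overlapped there and differed by -6.74 percentage points (exact two-sided permutation p = 0.667). In the unmixed barcodes they did not overlap at 1000 UMIs (-14.6 percentage points). Among endothelial cells, whose median depth was 7015 UMIs against 8117 UMIs, the thinned share was 0 to 0.167% and the unthinned share 0.353 to 1.29%, far below those of the border macrophages.

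**Figure D3:**
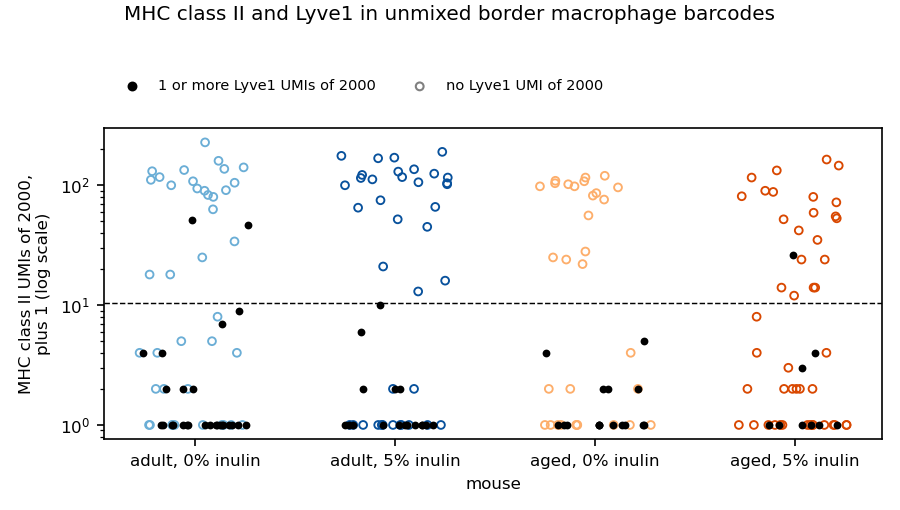
MHC class II UMIs of 2000 plus 1 (*H2-Aa*, *H2-Ab1*, *H2-Eb1* and *Cd74*, log scale) for each of the 224 unmixed border macrophage barcodes with at least 2000 UMIs, by mouse. Filled black points had a *Lyve1* UMI and the dashed line is the limit of 10 UMIs: black points lie almost all below it, with 66 of the 138 low but 3 of the 86 high barcodes.

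Age was tested on the UMIs summed per mouse, with edgeR's quasi-likelihood test and Benjamini-Hochberg adjustment over all genes. With all 289 barcodes, 5 of 8402 genes (0.0595%) were higher in aged mice and 0 (0%) were lower, while 408 had an unadjusted p under 0.05, and DESeq2 called 20 higher and 0 lower. The 5 genes were *Saa3*, *Cd5l*, *Alox15*, *Cxcl13* and *Thbs1*. *Saa3* was not found in the adult mice and was at 908 and 1102 CPM in the aged mice, at least 598-fold higher against 3 UMIs over the adult mice, and *Cd5l* was likewise at 0 in adult and at 107 and 83.6 CPM in aged mice, at least 57.1-fold higher. *Cxcl13*, a chemokine for B cells, was at 21.4 and 17.1 CPM in adult and 224 and 382 CPM in aged mice, with 3.95 ± 0.36 as the log2 fold change (SE, edgeR adjusted p = 0.0324). The adult and aged values did not overlap for any of the 5 genes, and these are genes that the 4 *Gata6* barcodes carried: 99.9% of the *Saa3*, 92.7% of the *Cd5l*, 96.5% of the *Alox15*, 66.1% of the *Thbs1* and 46.4% of the *Cxcl13* UMIs lay in them. Without those 4 barcodes, 0 genes were called higher or lower. Most *Cxcl13* UMIs lay outside them, and over the unmixed barcodes of all mice together it was at 140 CPM (without TMM scaling). Its lost call therefore does not show that its difference was gone. Without the adult mouse on 0%, the adult on 5%, the aged on 0% and the aged on 5% inulin, 1, 1, 9 and 148 genes were called higher.

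In the 228 unmixed barcodes, 5304 genes were tested, of which 19 (0.358%) passed as higher and 10 (0.189%) as lower in aged mice, and 463 had an unadjusted p under 0.05. Among the 10 is *Pf4*, a gene of the rule, which is no result, so that 9 are counted from here on. The genes that rose included 8 of the listed interferon response genes, 3 chemokine and cytokine genes and the complement gene *C4b*, and among the genes that fell was the class II chaperone *Cd74*. DESeq2 called 9 of the 19 and 3 of the 9, with no adjusted p for 3085 of the genes. After each barcode was thinned to 2000 UMIs, only 13 of the 19 higher and 7 of all 10 lower genes could be tested. A call given below as lost after thinning can therefore be that of a gene not tested. Leaving out the adult mouse fed 0% inulin kept 11 of the 19 and 5 of the 9, and thinning each barcode to 2000 UMIs kept 2 of each, although every gene that could be tested kept its direction in both. The fits without 1 mouse called 24, 53, 53 and 98 genes higher and 14, 15, 44 and 33 lower (without the adult mouse on 0%, the adult on 5%, the aged on 0% and the aged on 5% inulin).

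Interferon-stimulated genes carry out the antiviral program that type I interferon switches on. Of the 36 listed, 34 were tested, 8 rose (against 0.358% of all genes tested), 0 fell, and the median log2 fold change was 0.85 against -0.00 over all genes tested. The aged mice lay above the adult mice without overlap for 29 of the 34, against 19.1% of all genes tested. *Ifit3*, an inhibitor of viral RNA translation (chr19:34583531-34588731), was at 83.1 and 65.0 CPM in adult and 274 and 271 CPM in aged mice, from 14, 9, 17 and 20 barcodes with a UMI. Both aged mice lay well above both adult mice and close to each other (log2 fold change 1.86 ± 0.21 SE, edgeR adjusted p = 0.000572). *Ifit2*, a relative of *Ifit3*, was at 47.2 and 44.2 CPM in adult and 188 and 197 CPM in aged mice (2.06 ± 0.23), and *Iigp1*, an interferon-inducible GTPase outside the list, at 54.8 and 91.0 against 323 and 263 CPM (2.04 ± 0.24). *Rsad2*, the antiviral enzyme viperin, was at 34.0 and 13 CPM in adult and 201 and 90.4 CPM in aged mice (2.53 ± 0.42), and 1 barcode held 39.7% of its UMIs. *Ifi27l2a* was at 461 and 377 against 908 and 1487 CPM (1.51 ± 0.20). Each of these 5 genes stayed called in all 4 fits that left out 1 mouse and under DESeq2, but after thinning to 2000 UMIs only *Ifi27l2a* did. Smaller increases were found for *Ifitm3*, which blocks viral entry, at 1047 and 933 against 1497 and 1615 CPM (0.65 ± 0.13), for *Oasl2* (1.16 ± 0.24), for *Slfn5* (0.98 ± 0.20) and for *Ly6e* (0.67 ± 0.14). The calls of *Ifitm3* and *Ly6e* were lost with diet as covariate and without either adult mouse, those of *Oasl2* and *Slfn5* without the adult mouse on 0% inulin, and all 4 under DESeq2 and after thinning. In the low class II range, *Ifit3* was at 84.0 and 92.1 CPM in adult and 265 and 235 CPM in aged mice, and in the high range at 71.9 and 22.4 against 237 and 275 CPM, so the aged mice were above the adult mice in both ranges. With all 289 barcodes, the list's median log2 fold change was 0.68 and none of its 36 genes passed the adjusted threshold, *Ifit3* being at 57.7 and 71.0 CPM in adult and 179 and 177 CPM in aged mice.

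Interferon response genes are known for the ISRE, an element in their promoters that the factor ISGF3 binds. Stretches of 100 bases from the promoters of 3 genes that rose are given below because each holds the letters GAAA repeated after any 2 bases, on either strand, in capitals (RefSeq, GRCm38.p6, 5′ to 3′ along the gene). They are chr19:34583345-34583444 on the plus strand, chr12:26456518-26456617 on the minus strand and chr5:92349040-92349139 on the minus strand.
Ifit3: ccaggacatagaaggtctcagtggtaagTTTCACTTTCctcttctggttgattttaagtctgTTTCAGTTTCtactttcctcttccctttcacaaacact
Rsad2: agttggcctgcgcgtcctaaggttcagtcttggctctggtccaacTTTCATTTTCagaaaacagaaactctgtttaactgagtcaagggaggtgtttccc
Cxcl10: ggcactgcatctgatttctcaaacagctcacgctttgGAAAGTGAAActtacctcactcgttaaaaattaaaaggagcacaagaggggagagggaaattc
*Ifit3* held 2 matches, the first beginning 156 bases before the start. Of the 19 genes that rose, 13 had a promoter in the table and 7 of these held the letters (*Cxcl10*, *Gm36161*, *Ifit3*, *Ifitm3*, *Rsad2*, *Slfn5* and *Spp1*), as did 16 of the 28 listed interferon genes with a promoter. A gene can have several promoters. Counted by promoter, the letters were in 7 of 15 (46.7%) and 17 of 35 (48.6%), against 3.44% of all promoters.

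Chemokines and cytokines call other immune cells. Of the 34 listed, 23 were tested, 3 rose (against 0.358% of all genes tested) and 0 fell, with a median log2 fold change of 0.33. *Ccl12*, a ligand of CCR2, was at 983 and 910 CPM in adult and 3316 and 1737 CPM in aged mice (1.41 ± 0.21, edgeR adjusted p = 0.0041), and 137 barcodes had a UMI. The 2 aged mice stood above the adult mice, but apart from each other. *Cxcl10*, which draws T cells through CXCR3, was at 1.89 and 49.4 CPM in adult and 277 and 521 CPM in aged mice (4.14 ± 0.51), from 15 barcodes of which 1 held 49.1% of the UMIs. The calls of *Ccl12* and *Cxcl10* were lost under DESeq2 and after thinning. *Tnf* was at 41.6 and 49.4 CPM against 177 and 93.1 CPM (1.57 ± 0.31), and this call was lost in both as well as without the adult or without the aged mouse fed 0% inulin. *Ccl8*, at 561 and 315 against 693 and 1548 CPM, did not pass (edgeR adjusted p = 0.0566), and *Ccl2*, at 531, 647, 1302 and 516 CPM, and *Il1b*, at 39.7, 200, 169 and 128 CPM, had ages that overlapped.

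Of the 15 complement genes, 11 were tested and 1 rose, against 0.358% of all genes tested. *C4b*, which encodes complement component 4 (chr17:34728380-34743882), was at 246 and 252 CPM in adult and 549 and 894 CPM in aged mice, from 30, 22, 35 and 45 barcodes with a UMI. Its log2 fold change was 1.54 ± 0.20 (SE, edgeR adjusted p = 0.00137), no barcode held more than 3.66% of its UMIs, and the call stayed under all 9 alternative fits of the unmixed barcodes. *C1qa*, by contrast, was at 7228 and 7142 CPM in adult and 8083 and 8645 CPM in aged mice and did not pass (0.22 ± 0.11).

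*Icam1*, an adhesion molecule for leukocytes, was at 24.6 and 28.6 CPM in adult and 81.5 and 112 CPM in aged mice (1.87 ± 0.32). *Gpr84*, a receptor for medium-chain fatty acids, had no UMI in the adult mice and was at 43.5 and 45.2 CPM in aged mice, at least 13.3-fold higher against 3 UMIs over the adult mice, but from 8 barcodes only. The call of *Icam1* was lost without the adult mouse on 0% inulin, that of *Gpr84* without either aged mouse, and both under DESeq2 and after thinning. *Spp1* (osteopontin) was at 9.45 and 10.4 CPM in adult and 492 and 98.4 CPM in aged mice, with 70.9% of its UMIs in 1 barcode. *Rbm3*, a cold-inducible RNA-binding protein, was at 212 and 218 against 492 and 508 CPM (1.22 ± 0.16). The mitochondrial gene *mt-Atp6* (0.97 ± 0.16) and the uncharacterized *Gm36161* (3.88 ± 0.74) completed the genes that rose. *Gm36161* was called in none of the fits that left out 1 mouse, the call of *mt-Atp6* was lost without the adult mouse on 0% inulin, and those of *mt-Atp6*, *Rbm3* and *Spp1* after thinning. Of the 24 genes of disease-associated microglia, 19 were tested and *Spp1* alone passed (against 0.358% of all genes tested), with a median log2 fold change of 0.38. The aged mice lay above the adult mice without overlap for 14 of the 19, against 19.1% of all genes tested.

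Of the 11 listed MHC class II genes, 7 were tested, 1 fell (against 0.189% of all genes tested) and 0 rose, with a median log2 fold change of -0.60, and for all 7 the aged mice lay below the adult mice without overlap, against 19% of all genes tested. *Cd74*, the invariant chain that guides class II molecules to the endosome, was at 8579 and 10246 CPM in adult and 5903 and 5681 CPM in aged mice. The aged mice were close to each other and below both adult mice (-0.70 ± 0.12 SE, edgeR adjusted p = 0.00822). This call was lost without the adult mouse fed 5% inulin, with diet as a covariate and after thinning. *H2-Aa*, at 3299 and 4446 against 2587 and 2389 CPM, did not pass (-0.64 ± 0.14, edgeR adjusted p = 0.0544), nor did *H2-Ab1* (-0.60 ± 0.15, 0.101) and *H2-Eb1* (-0.53 ± 0.13, 0.0967). In the high class II range, the median number of class II UMIs of 2000 was 93 and 108 in adult and 95 and 53 in aged mice, so the lowest median was that of the aged mouse fed 5% inulin and the other 3 mice were near each other. With all 289 barcodes, none of the 7 fell and their median was -0.38. The aged mice lay below the adult mice without overlap for only 2 of the 7 there, against 1458 of all 8402 genes tested. *Cd74* was there at 4242 and 5852 CPM in adult and 4186 and 3350 CPM in aged mice and did not pass (edgeR adjusted p = 0.995).

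Other genes that fell were *Mgl2*, a lectin closely related to *Clec10a*, at 482 and 546 CPM in adult and 242 and 85.1 CPM in aged mice (-1.65 ± 0.29, edgeR adjusted p = 0.0134), *S100a10* (-1.86 ± 0.37), *Ahnak* (-1.36 ± 0.28), *Tmx4* (-1.40 ± 0.29) and *AC122252.2* (-0.95 ± 0.19). The calls of these 5 genes were lost under DESeq2 and after thinning, those of *Tmx4* and *AC122252.2* also without the adult mouse on 0% and that of *Ahnak* without the adult mouse on 5% inulin. With all 289 barcodes the log2 fold change of *S100a10* was 0.02, so its direction turned with the choice of barcodes. *Clec10a* was at 334 and 476 against 220 and 231 CPM and did not pass (edgeR adjusted p = 0.0755). Reads of *Mgl2* and *Clec10a*, closely related genes that lie next to each other, could be split between them. *Ccl17* was at 136 and 75.4 CPM in adult and 24.5 and 0 CPM in aged mice, but 64.5% of its UMIs were in 1 barcode, and its call was lost under DESeq2, after thinning and without the adult mouse on 0% inulin. *Pf4*, at 3381 and 3206 against 2220 and 2157 CPM, is a gene of the rule and is given as a value only. *Ttr* and *Enpp2*, the most abundant genes of choroid plexus epithelium, made up the last of the genes that fell, with *Ttr* at 5730 and 4911 CPM in adult and 2661 and 3405 CPM in aged mice, a call lost without the adult mouse on 0% inulin. In microglia of the same mice *Ttr* was at a like level, 5584 and 4598 against 2837 and 3206 CPM, and all 10 genes of the choroid plexus list fell there, against 1.17% of all genes tested in microglia. All 10 genes of the choroid plexus list were present, and the list summed to 61.1 and 52.0 per 10000 UMIs of border macrophages in adult and 27.1 and 34.4 in aged mice, 89.7% of it *Ttr*. Border macrophages of the choroid plexus and free choroid plexus RNA cannot be told apart from these values, although a like level in microglia was measured.

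**Figure D4:**
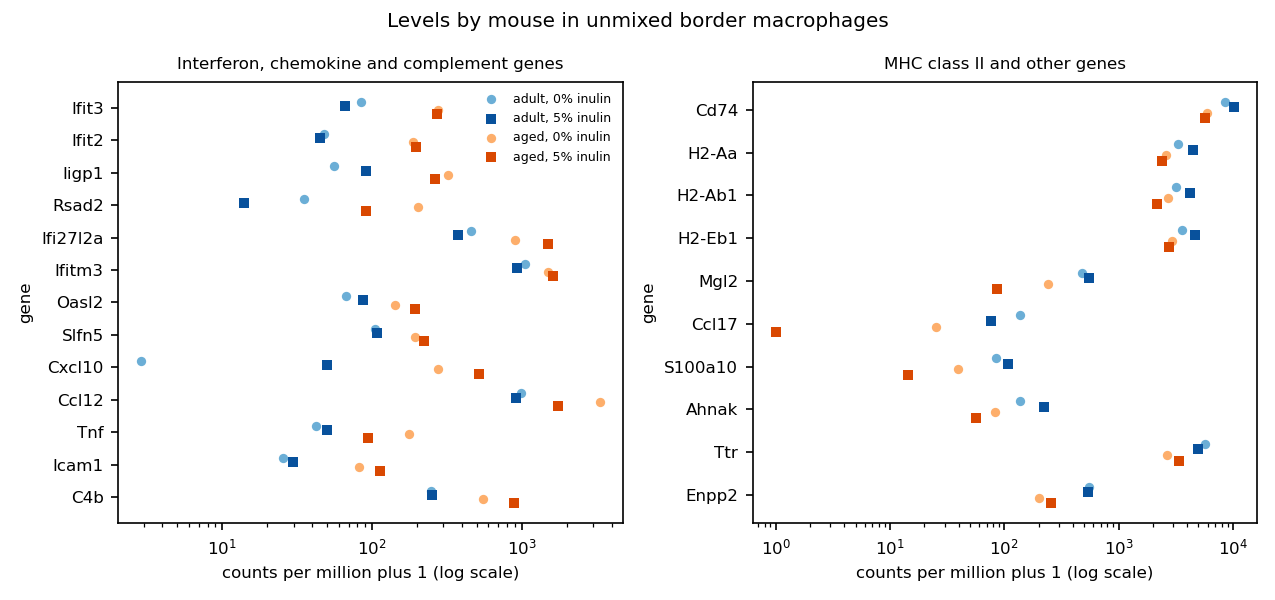
Levels in CPM plus 1 (log scale) of named genes in unmixed border macrophages, 1 point per mouse (adult blue, aged orange, squares for 5% inulin). At the left, the aged mice lie to the right of the adult mice for every gene, as for *Ifit3* at 274 and 271 against 83.1 and 65.0 CPM. At the right they lie to the left, including *H2-Aa*, *H2-Ab1* and *H2-Eb1*, which did not pass the test.

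Of the 30 border macrophage genes outside the rule, 29 were tested and 0 rose or fell (against 0.358% and 0.189% of all genes tested, at which 0 calls in a list of this size is near the background), with a median log2 fold change of -0.01. *Lyve1* was at 643 and 413 CPM in adult and 606 and 338 CPM in aged mice, and *Ms4a7* at 777 and 824 against 943 and 718 CPM, so the ages overlapped for both. *F13a1* was at 1242 and 1126 against 976 and 875 CPM (-0.36 ± 0.13, edgeR adjusted p = 0.392). *Folr2* was at 283 and 276 against 419 and 418 CPM (0.58 ± 0.16, edgeR adjusted p = 0.144). None of the 26 scavenger and lectin receptors, 23 lysosomal genes, 16 genes of lipid handling and 12 genes of iron handling tested rose or fell, again near that background, and their medians were -0.03, 0.19, -0.09 and 0.01. For 13 of the 23 lysosomal genes the aged mice lay above the adult mice without overlap, against 19.1% of all genes tested.

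The age effect was then compared with that in microglia of the same mice, in a fit with the mouse as a block and a term for the difference. Microglia with RNA of other classes (920 barcodes) were left out as well. In the unmixed barcodes, 239 of 12219 genes differed (edgeR adjusted p under 0.05), 16 (0.131%) with a higher and 223 (1.83%) with a lower age effect in border macrophages. Microglia themselves had 883 genes (6.37%) that rose and 162 (1.17%) that fell of 13869. Of the 223, 214 had a positive log2 fold change in microglia and 181 rose there, whereas in border macrophages 101 were positive and 106 negative of 207 tested and 13 passed the test. These counts depended on single mice: without the adult mouse fed 5% inulin 0 genes differed, without the one fed 0% 13 did, and without the aged mice fed 0% and 5% 309 and 145 did. Over all 289 barcodes 2 of 14955 genes differed, 1 in each direction (0.00669% each).

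*Apoe*, the apolipoprotein that carries lipid between brain cells, showed this difference from a level that was high at all ages. Scaled together with microglia, it was at 55815 and 59255 CPM in border macrophages of adult mice and at 63296 and 64145 CPM in those of aged mice, and a UMI was in every unmixed barcode. In microglia it was at 1508 and 973 CPM in adult and 9024 and 14455 CPM in aged mice, so even the aged microglia stayed below all border macrophages. The log2 age effect was 0.15 ± 0.10 in border macrophages and 3.23 ± 0.24 in microglia, a difference of -3.09 ± 0.19 (SE, edgeR adjusted p = 3.21e-41). The same held for *Lyz2* (lysozyme), at 9408 to 10589 CPM in border macrophages against 323 and 312 CPM in adult and 1093 and 1569 CPM in aged microglia (difference -1.96 ± 0.18), and for *Cybb*, the catalytic subunit of the phagocyte NADPH oxidase (-2.80 ± 0.21). *Igf1*, a growth factor, was at 174 to 231 CPM in border macrophages and went from 1.30 and 0.381 CPM in adult to 15.8 and 27.1 CPM in aged microglia (-4.63 ± 0.35). *Ms4a7* (-2.01 ± 0.24) was of the same kind.

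For class II the signs were opposite. *Cd74* rose in microglia, from 201 and 114 CPM in adult to 335 and 427 CPM in aged mice, while it fell in border macrophages (difference -2.01 ± 0.18, edgeR adjusted p = 5.1e-21). Of the 11 class II genes, 5 had a lower age effect in border macrophages, against 1.83% of all genes tested (*Cd74*, *H2-Aa*, *H2-Ab1*, *H2-Eb1* and *H2-DMa*). Of the 36 interferon genes, 28 rose in microglia (against 6.37% of all genes tested there), and the age effect was smaller in border macrophages for 10 (against 1.83%), as for *Ifit3* (difference -1.15 ± 0.28, edgeR adjusted p = 0.00589) and *Ifitm3* (-1.49 ± 0.18), and *C4b* was alike (-1.72 ± 0.29). *Cxcl10* rose more in border macrophages (1.47 ± 0.35, edgeR adjusted p = 0.00325), and *Icam1* rose there but was at 106 and 96.9 CPM in adult and 109 and 134 CPM in aged microglia (difference 1.62 ± 0.34, edgeR adjusted p = 0.00035). In border macrophages, a large part of the *Cxcl10* UMIs lay in a single barcode. The age calls of both genes there were lost under DESeq2 and after thinning.

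**Figure D5:**
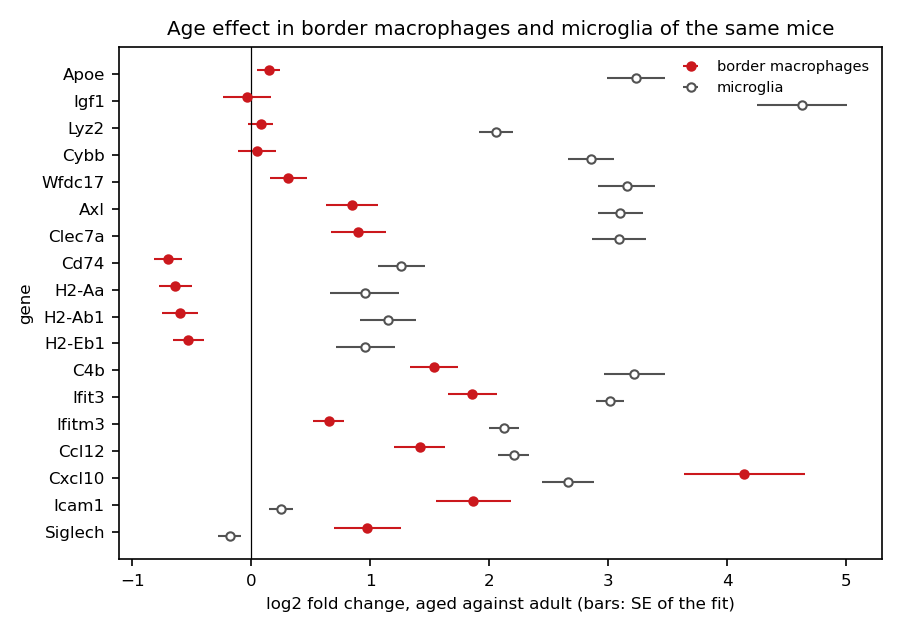
Log2 fold change of aged against adult mice (x axis, bars are the SE of the fit) for 18 genes in unmixed border macrophages (filled) and in microglia of the same mice (open). *Apoe*, *Igf1*, *Lyz2* and *Cybb* lie near 0 in border macrophages and between 2.06 and 4.63 in microglia, *Cd74*, *H2-Aa*, *H2-Ab1* and *H2-Eb1* lie on opposite sides of 0, and *Cxcl10* and *Icam1* lie further right in border macrophages.

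Diet was compared with the ages pooled. No gene passed for 5% against 0% inulin, neither of the 8402 tested in all 289 barcodes (0% higher, 0% lower) nor of the 5304 in the unmixed barcodes (0% and 0%), while 143 and 150 had an unadjusted p under 0.05, and DESeq2 called 0 in both. With age as covariate, 1 gene passed as higher and 4 as lower in the unmixed barcodes and 0 in all 289. *Cd209a*, a C-type lectin, was at 467 and 378 CPM in the mice on 0% and at 187 and 189 CPM in those on 5% inulin, in the adult and aged mouse each time. The diets did not overlap, but the gene did not pass (-1.17 ± 0.20 SE, edgeR adjusted p = 0.6). *Lyve1* was at 643 and 606 CPM on 0% and 413 and 338 CPM on 5% inulin (-0.73 ± 0.18, edgeR adjusted p = 1). Fits of the unmixed barcodes without 1 mouse, in which a diet rests on a single mouse, called 3 to 13 genes higher and 4 to 35 lower.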

How the data were processed

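Whole-brain cells of 4 mice, 1 per age and diet, were measured. The authors counted UMIs per gene and barcode with Cell Ranger 3.1.0 on GRCm38 and deposited whole-number counts, not normalized, for the barcodes called as cells (88248117 to 115814810 UMIs per mouse). Everything from the counts onward was computed here. Barcodes with at least 1000 UMIs and a mitochondrial share within 3 median absolute deviations of the median (15.8%) were kept. Border macrophages were gated as described. Microglia needed a *Csf1r* UMI, at least 4 UMIs of *Tmem119* and *P2ry12* and under 8 of the 4 border markers, and 28 barcodes with both markers joined neither class. Barcodes called by Scrublet stayed in the sums (removed in an alternative). The members, gene lists and tests were chosen with earlier results of these data known, and the limits for mixed and *Gata6* barcodes (2 UMIs) after these cells were seen.

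UMIs were summed per mouse and tested with edgeR 4.0.16 (filterByExpr, TMM, quasi-likelihood fit and test, Benjamini-Hochberg), with calls at an adjusted p under 0.05 and over 1.5-fold, and with no fold limit for the difference between classes. Each SE was obtained from the log2 fold change and the F statistic. Shares were compared by exact permutation. Each group has 1 mouse per diet, so the spread between mice was seen in only 2 mice per group. The edgeR fit shares its estimate of that spread over all genes tested. A small edgeR p-value therefore depends on that sharing as well as on the mice. DESeq2 1.42.0, other scaling and filters, diet or age as covariate, other gates, thinning and leaving out each mouse were alternatives. Named genes were up to 12 per direction with the largest fold change among those called with a mean of at least 20 CPM and no overlap, the 20 leading genes over microglia, a fixed set of 42 genes, and up to 6 called genes and the most abundant gene of each of 33 lists. Genes named beyond this rule (*Slpi*, *Prg4*, *Gata6*, *Ifi207*, *Ly6e*, *Rbm3*, *mt-Atp6*, *Gm36161* and the genes of the class II ranges) were chosen after their values were seen. Some genes are not reported here. The fits were tested on simulated sums. Promoters came from RefSeq, gene coordinates from GENCODE. R 4.3.3, Python 3.11.15, scanpy 1.11.5, numpy 2.4.6, pandas 2.3.3 and scipy 1.17.1 were used.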

Additional observations from a re-analysis of the deposited data

Results flagged for a closer look

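The results below were picked out because the age effect differed between border macrophages and microglia of the same mice, by the test of the difference itself in edgeR.

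Over all 289 barcodes 2 genes differed. *Prg4*, a lubricating glycoprotein, was at 0.921 and 2.63 CPM in border macrophages of adult and 711 and 201 CPM in those of aged mice, against 12.0 and 16.9 CPM and 23.8 and 19.9 CPM in microglia (difference in log2 age effect 7.24). The 4 *Gata6* barcodes of the aged mice held 90.1% of its UMIs. *Ifi207*, an interferon-inducible gene, was at 136 and 140 CPM in adult and 175 and 162 CPM in aged border macrophages, against 1.31 and 1.13 CPM and 16.6 and 17.3 CPM in microglia (-3.50). In border macrophages it was high at both ages, and its aged values exceeded its adult ones by little.

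In the unmixed barcodes 239 genes differed. The difference in log2 age effect was -3.09 for *Apoe*, -2.01 for *Cd74*, -4.63 for *Igf1*, -2.01 for *Ms4a7*, 1.47 for *Cxcl10* and 1.62 for *Icam1*. The limits given above for *Cxcl10* and *Icam1* hold here too. With each barcode thinned to 2000 UMIs, 35 genes differed. The part of choroid plexus RNA in these differences was not tested.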

How the results depend on the processing

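Counts of genes over all 289 barcodes depended on which barcodes were summed. Against 5 genes higher in aged mice, there were 204 with no filter on low counts, 20 with DESeq2, 8 with a marker minimum of 16, 16 with 0 UMIs of *Tmem119* and *P2ry12*, 10 with an upper limit on UMIs, 21 without barcodes with 8 or more endothelial UMIs, 17 after thinning, 60 without mixed barcodes, 0 without *Gata6* barcodes and 19 without both. Against 0 lower, there were 33, 5, 17 and 10 with no filter, after thinning, without mixed barcodes and without both. For diet, no filter gave 14 higher and 104 lower. Genes whose age effect differed from microglia (2) became 152 with no filter, 12 with DESeq2, 6 with a marker minimum of 16, 115 with 0 microglial marker UMIs, 127 with the UMI limit, 0 without Scrublet calls, 40 without endothelial UMIs, 31 after thinning, 138 without mixed barcodes, 1 without *Gata6* barcodes and 239 without both. Genes higher than in microglia fell to 846 after thinning.

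In the unmixed barcodes, the 19 higher became 76 with no filter, 9 with DESeq2, 30 with diet as covariate and 2 after thinning, and the 10 lower became 43 (no filter), 3 (DESeq2) and 2 (thinned). Diet gave 6 higher and 19 lower with no filter, and 1 and 4 with age as covariate. The 239 became 75 (DESeq2) and 35 (thinned), and the genes higher than in microglia 705 (thinned). The cause of these shifts was not tested. The difference in the class II share changed sign with a marker minimum of 16 (-7.41 percentage points), 0 microglial marker UMIs (-0.790), without mixed barcodes (-3.13) and without both (-0.897), that in the *Lyve1* share with a marker minimum of 16 (3.80), and the log2 fold change of *S100a10* with age (0.02) became -1.86 without both.

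Leaving out 1 mouse leaves an arm with 1 sample, assumed to vary like the other. Over all barcodes it gave 1 to 148 higher and 0 to 14 lower with age, 0 to 0 higher and 0 to 21 lower with inulin, 0 to 174 for the difference from microglia, 969 to 1391 higher and 747 to 1097 lower than in microglia, and -2.53 to 7.92 percentage points for the class II share. The share of border macrophages (-0.232 to -0.0143) and the *Lyve1* share (-16.0 to -0.366) kept their sign. In unmixed barcodes it gave 24 to 98 higher and 14 to 44 lower with age, 3 to 13 and 4 to 35 with inulin, 0 to 309 for the difference from microglia, and 1079 to 1403 and 1015 to 1303 against microglia.

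The replicate number in the labels stands for the diet, so diet as covariate is the replicate block: it kept 17 of the 19 and 8 of the 9 genes other than *Pf4*. With 228 barcodes in 4 mice, depth limited the test to 5304 genes.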

Other observations

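Stress and activation genes of the unmixed border macrophages were also listed. None of the 15 heat shock genes tested rose or fell with age (against 0.358% and 0.189% of all genes tested), although all 15 log2 fold changes were negative, with a median of -0.31 against -0.00 over all genes tested. The aged mice lay below the adult mice without overlap for 7 of the 15, against 19% of all genes tested. The list summed to 105 and 84.5 per 10000 UMIs in adult and 79.2 and 71.7 in aged mice. In microglia of the same mice it summed to 88.4 and 72.6 against 49.2 and 48.6, and 8 of 16 genes fell, against 1.17% of all genes tested there. Immediate early genes were abundant at both ages, with *Fos* at 3925 and 4311 CPM in adult and 4490 and 4234 CPM in aged mice and *Jun* at 5165, 4935, 4275 and 4814 CPM, and none of the 19 tested passed, which is near the same background. Dissociation at 37 °C is known to induce such genes, and its part was not tested.

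Of the 16 MHC class I genes, 15 were tested and none passed, but for 13 of them the aged mice lay above the adult mice without overlap (19.1% of all genes tested), with a median log2 fold change of 0.52. *B2m* was at 1595 and 1680 CPM in adult and 2144 and 2306 CPM in aged mice (0.44 ± 0.12, edgeR adjusted p = 0.129), and *H2-D1* at 1512 and 1591 against 2212 and 2146 CPM (0.49 ± 0.12, 0.0875). The log2 fold change was positive for 14 of the 15.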
